A study of Mus musculus with 2 samples.

Results

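The genes described here are 6 genes of cholesterol synthesis and its control, looked up by symbol in a list of E2F1 binding regions in mouse hepatocytes. They are Insig1 and Srebf2, which belong to the sterol-sensing machinery, and Hmgcs1, Mvk, Fdps and Fdft1, which code for enzymes between acetoacetyl-CoA and squalene. The table holds 5587 gene symbols in all, and 5 of the 6 genes are among them. They account for 7 of the 5667 listed peaks, while Hmgcs1 has no row. Uptake of lipoprotein cholesterol is covered below only through the wider pathway.

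Chromatin came from primary cultures of hepatocytes of C57Bl6J mice, 36 h after infection with the adenovirus Ad-E2F1. It was fixed in 1% formaldehyde for 10 min. The E2F1 ChIP group (1 record) was pulled down with the c-20 antibody against E2F1, and the input group (1 record) is chromatin of equally treated cells without antibody. Both groups carry the E2F1 vector, so binding is that of an overexpressed factor, and cells without the vector were not analysed here. The labels state neither age nor sex of the mice. The series text gives 2 replicates of 2 combined ChIPs each, but the list is not split by replicate, so no value has a replicate error and no comparison was tested. The file lists peaks and no expression, so the hepatocyte label could not be checked against marker genes. ChIP-seq sequences the DNA that comes down with a protein, and a peak is a region called where aligned reads (tags) exceed what input predicts. The fold is the peak caller's ratio of signal over that prediction, and need not equal the ratio for all tags of the region. The false discovery rate is the share of such calls that the peak caller expects to be false. Read totals per library are unknown, and so is the depth.

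Cholesterol is built from acetyl-CoA through mevalonate and squalene, and the liver is a main site of this synthesis. Its genes are known to be switched on together by SREBP-2, the product of Srebf2, a factor held in the endoplasmic reticulum until sterols run low. Insig proteins bind the escort protein SCAP when sterols are plentiful and so keep SREBP-2 from being cut and moving to the nucleus. SREBP-2 acts at sterol regulatory elements of promoters together with NF-Y, which binds CCAAT boxes, and Sp1, which binds GC boxes. E2F1 is best known for activating genes of S phase, through sites of the type TTTCCCGC.

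Of the 6 genes, 4 had an E2F1 peak at the promoter, namely Insig1, Fdps, Fdft1 and Mvk. Such a peak is one whose summit is at most 1000 bp from the transcription start site (TSS). Among the 21900 protein-coding genes of the reference table, 2866 (13.1%) had one. Any listed peak was found for 5 of the 6 genes, against 5406 of all protein-coding genes (24.7%). The 6 genes were chosen with results of this list known, so these counts describe the genes and give no evidence that cholesterol genes are preferred.

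The promoters of 4 of the 6 genes are in the RefSeq promoter table (GRCm38.p6). The 250 bases before the annotated start are shown to set a pair of promoters with a listed peak, Insig1 and Mvk, beside a pair without one, Hmgcs1 and Srebf2. Capitals mark the CCAAT box of NF-Y, the GC box GGGCGG of Sp1, the E2F core GCGGGA and the sterol word CACCCCA, each on either strand. All 4 lie on the plus strand, at chr5:28071162-28071411 for Insig1, chr5:114444019-114444268 for Mvk, chr13:119690101-119690350 for Hmgcs1 and chr15:82147019-82147268 for Srebf2.
Insig1: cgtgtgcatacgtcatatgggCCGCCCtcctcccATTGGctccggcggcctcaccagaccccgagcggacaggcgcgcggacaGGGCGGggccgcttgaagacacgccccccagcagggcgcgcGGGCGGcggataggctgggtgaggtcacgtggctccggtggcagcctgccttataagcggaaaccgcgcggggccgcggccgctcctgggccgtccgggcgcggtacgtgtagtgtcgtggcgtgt
Mvk: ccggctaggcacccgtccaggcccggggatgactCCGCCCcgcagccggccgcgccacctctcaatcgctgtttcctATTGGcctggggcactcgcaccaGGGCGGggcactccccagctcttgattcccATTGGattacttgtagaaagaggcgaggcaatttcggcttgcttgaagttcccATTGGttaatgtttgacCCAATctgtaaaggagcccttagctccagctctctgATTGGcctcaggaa
Hmgcs1: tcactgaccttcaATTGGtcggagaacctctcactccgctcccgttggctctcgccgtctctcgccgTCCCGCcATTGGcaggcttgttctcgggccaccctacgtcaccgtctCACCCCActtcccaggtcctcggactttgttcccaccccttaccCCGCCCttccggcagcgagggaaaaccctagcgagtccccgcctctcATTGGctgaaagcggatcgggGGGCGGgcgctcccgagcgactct
Srebf2: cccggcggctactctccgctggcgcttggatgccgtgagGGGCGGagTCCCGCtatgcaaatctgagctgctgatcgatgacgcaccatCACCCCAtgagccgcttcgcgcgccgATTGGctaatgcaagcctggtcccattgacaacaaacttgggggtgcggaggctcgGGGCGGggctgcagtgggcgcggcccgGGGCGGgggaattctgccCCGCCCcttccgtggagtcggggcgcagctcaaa

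None of these 4 stretches held TTTCCCGC, TTTCGCGC, TTTGCCGC or TTTGGCGC, which stand here for the full E2F site and were searched on both strands. Of 32841 RefSeq promoter stretches of the same length, 1.86% held at least 1 of these words. Among the 2910 stretches of genes with a promoter peak the share was 6.84%, against 1.64% among the 18362 stretches of other protein-coding genes. The shorter core GCGGGA was found at Hmgcs1, 183 bases before the start, and at Srebf2, 203 bases before it. It was found at neither Insig1 nor Mvk, although 39.0% of the stretches of genes with a promoter peak and 16.9% of all stretches held it. In these 250 bases the core was thus in the pair of promoters without a listed peak and not in the pair with one. A missing match says only that the letters are not in this window.

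The words linked to sterol control were spread differently. Mvk held CCAAT 5 times, at 173, 120, 67, 50 and 14 bases before the start, a number reached by 1.07% of the stretches of genes with a promoter peak and 0.213% of all stretches. Positions are those of the first base of the match on the printed strand. Hmgcs1 held it 3 times, at 237, 176 and 45 bases, a number reached by 8.83% and 2.79% of these sets. Insig1 and Srebf2 held it a single time each, at 216 and 135 bases. The GC box GGGCGG occurred 4 times at Srebf2, 3 times at Insig1 and 2 times each at Mvk and Hmgcs1, while 63.0% of the stretches of genes with a promoter peak and 32.7% of all stretches had at least 1. All 4 genes had both words, as did 28.2% of the stretches of genes with a promoter peak and 11.0% of all stretches.

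The sterol word CACCCCAC was found at Hmgcs1 alone among the 4, 136 bases before the start, and in 2.58% of all stretches. Its first 7 letters CACCCCA, a setting added after the data had been seen, were also at Srebf2, 161 bases before the start, and in 6.68% of stretches. With any letter at the fourth place (CACNCCAC), Insig1 had a match 9 bases before the start, as did 5.29% of stretches anywhere in the window. CACGTG, the E-box, was found at Insig1, 101 bases before the start, and in 6.02% of stretches.

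Base composition also differed among the 4. The Insig1 stretch had a GC content of 72.8% and 34 CpG, at or above 97.0% of all stretches in CpG number. Srebf2 had 67.6% and 25 CpG, Hmgcs1 64.8% and 23, and Mvk 58.8% and 13. The median was 60.0% GC with 17 CpG over stretches of genes with a promoter peak, and 54.4% with 8 over those of other protein-coding genes. CpG number did not separate Insig1 and Mvk from the others, since Mvk, with a listed peak, had fewer than Hmgcs1 and Srebf2 without a promoter peak.

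Among the regulators, Insig1 had the peak of highest fold of the 6 genes, while the Fdps promoter peak was higher in score, pileup height and tags. Its product is the endoplasmic reticulum protein that retains SCAP, and the gene is itself a known SREBP target. The summit window of 301 bp lay on chromosome 5 from 28397565 to 28397865 (mm9, as are all peak coordinates). The fold over input was 11.17, with a false discovery rate of 0.1%. The fold, score and false discovery rate given here are the authors' values for each peak. This fold stood at the 90.2nd percentile of all listed peaks and at the 83.3rd of the 2612 promoter peaks, whose median fold is 6.48. The region of 1486 bp held 157 tags (exact Poisson 95% interval 133 to 184, which covers counting error only). The list median was 149 tags in a region of 1914 bp. Per kilobase Insig1 had 106 tags, the 84.9th percentile.

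Srebf2, which codes for SREBP-2, had no listed peak at its promoter. Its single peak lay inside the gene, 41649 bp from the TSS, on chromosome 15 from 82019345 to 82019645. The fold was 4.10 with a false discovery rate of 4.09%, and 84 tags (67.0 to 104) were counted in 1118 bp. The fold was near 4.07, the median of the 3055 peaks outside promoters. The nearest other listed peak on the chromosome was 55740 bp away.

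Hmgcs1, the cytosolic HMG-CoA synthase that makes HMG-CoA from acetoacetyl-CoA, had no row in the table under its symbol. Peak numbers run to 18908 and 13241 of them are missing from the list, so a gene without a row may still have been bound. No level can be given for this gene.

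The 3 later enzymes of the mevalonate branch all had promoter peaks of like fold. Mevalonate kinase, the Mvk product, phosphorylates mevalonate. Its peak on chromosome 5 from 114893972 to 114894272 had a fold of 7.74, a false discovery rate of 0.59% and 132 tags (110 to 157) in 1439 bp. The same peak is listed for Mmab, the gene of a cobalamin adenosyltransferase that shares this promoter. The window held the TSS of Mmab and ended 16 bp from that of Mvk, and the authors name Mmab as the closest gene. A peak shared in this way cannot be divided between the 2 genes. Of all promoter peaks, 12.6% served more than 1 promoter.

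Fdps codes for farnesyl diphosphate synthase, which joins isoprene units into farnesyl diphosphate. Its promoter peak, on chromosome 3 from 88905892 to 88906192, had a fold of 8.97 and a false discovery rate of 0.1%. It held 337 tags (302 to 375) in 2958 bp, more than any other peak of the 6 genes and at the 93.9th percentile of the list. Per kilobase this came to 114 tags, the 88.1st percentile.

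Fdft1 codes for squalene synthase, which commits farnesyl diphosphate to sterols. Its promoter peak lay on chromosome 14 from 63796710 to 63797010, with a fold of 8.41 and a false discovery rate of 0.09%. It held 252 tags (222 to 285) in 2678 bp, or 94.1 per kilobase. Tag intervals of Fdps and Fdft1 did not overlap each other or those of Insig1 and Mvk, while the intervals of Insig1 and Mvk overlapped. The order of tags, Fdps, Fdft1, Insig1 and Mvk, differs from the order of folds, Insig1, Fdps, Fdft1 and Mvk. Called regions at Fdps and Fdft1 were 2958 and 2678 bp long, against 1486 and 1439 bp at Insig1 and Mvk, and the part of region length in the tag order was not tested.

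**Figure D1:**
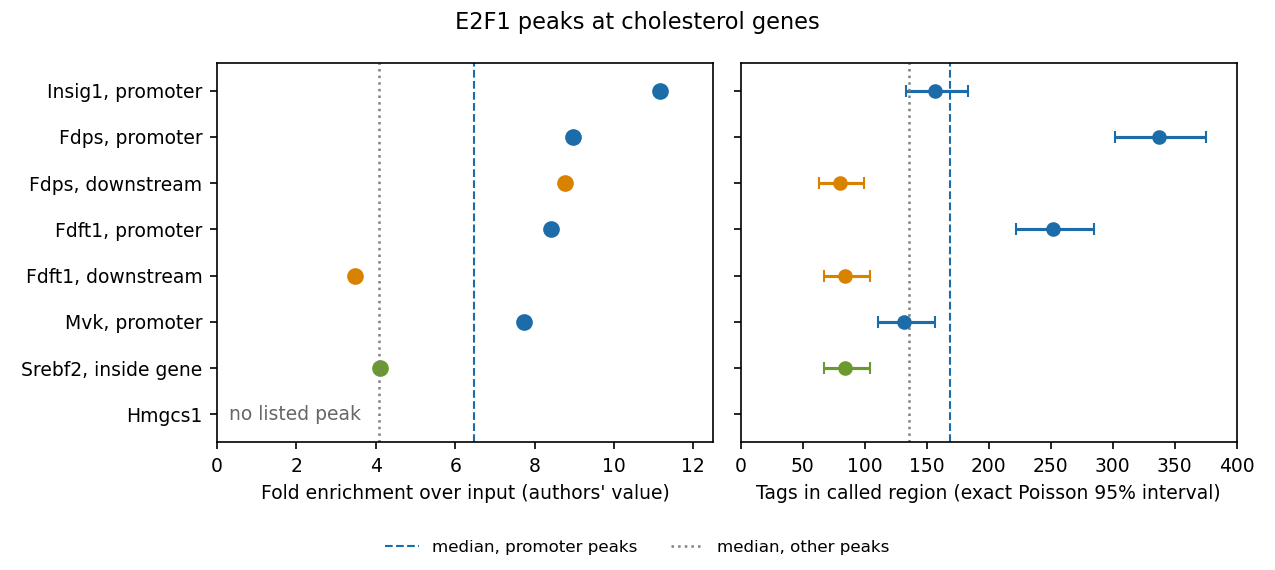
Fold enrichment over input (left) and tags in the called region with exact Poisson 95% intervals (right) for the 7 peaks of the 6 genes; lines mark the list medians of promoter and other peaks. The 4 promoter peaks have folds of 7.74 to 11.17, all right of the promoter median of 6.48, while tags reach 337 at Fdps and 84 or fewer at the 3 peaks away from promoters.

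Both Fdps and Fdft1 had another peak past the 3' end. At Fdps it lay 2412 bp past the gene on chromosome 3 from 88894801 to 88895101, 11091 bp from the promoter peak and inside Rusc1, a gene for a signalling adaptor. Its fold of 8.77 was 0.978 of that at the promoter, with 80 tags (63.4 to 99.6) in 1139 bp and a false discovery rate of 0.6%. Among peaks outside promoters this fold was at the 92.8th percentile. The authors list Rusc1 as the closer gene, with its TSS 2184 bp away. In folds the pair was nearly equal, while per kilobase the peak past the gene held 70.2 tags and the promoter peak 114.

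At Fdft1 the further peak lay 278 bp past the gene end on chromosome 14 from 63763411 to 63763711, inside Ctsb, the gene of the lysosomal protease cathepsin B. Its fold was 3.48, or 0.414 of the promoter fold, with 84 tags (67.0 to 104) and a false discovery rate of 6.57%. It was the weakest of the 7 peaks by fold, by pileup height and by score. Across 130 genes with a promoter peak and a peak past the end or in the 3' untranslated region, the median ratio was 0.767. The highest fold of each kind was used per gene. Peaks past the end were kept also where they were promoter peaks of another gene, which those of Fdps and Fdft1 were not. A ratio at or above that of Fdps was seen in 35.4% of these genes, and at or above that of Fdft1 in 88.5%.

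**Figure D2:**
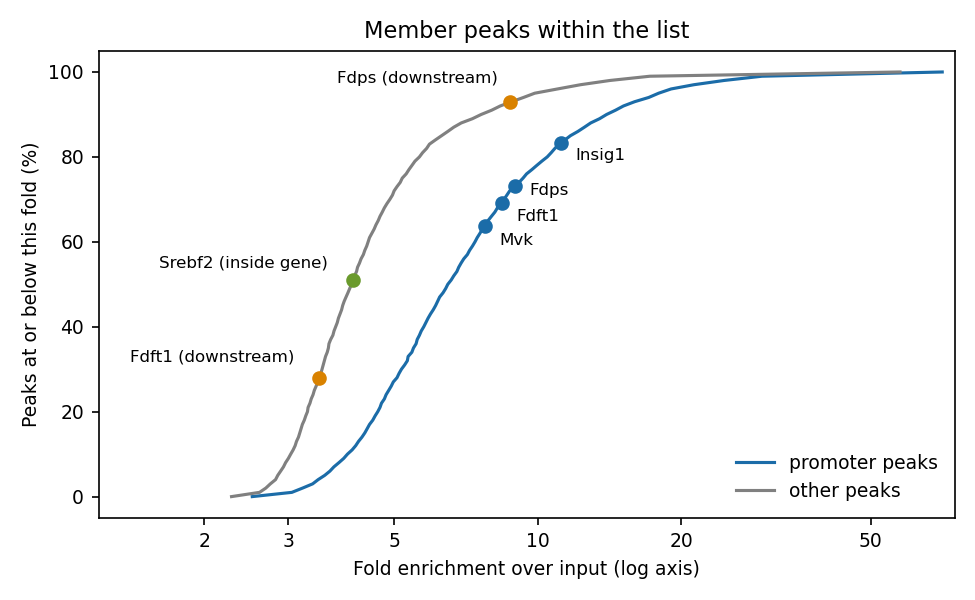
Cumulative share of peaks (%) by fold over input (log axis) for promoter peaks and other peaks, with the 7 peaks of the 6 genes marked on the curve of their class. The promoter peaks of Mvk, Fdft1, Fdps and Insig1 stand in that order between the 63.6th and 83.3rd percentiles of promoter peaks, and the Fdps peak past the gene is high on the curve of other peaks.

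The 4 promoter peaks shared a position just upstream of the start. Windows ended 10 bp upstream of the TSS at Fdps, 16 bp at Mvk, 79 bp at Fdft1 and 86 bp at Insig1, and none held the TSS of the gene itself. Of 2943 promoter pairs of a peak and a gene in the list, 32.7% had the window upstream of the TSS. In 14.7% it lay 1 to 100 bp upstream, and in 50.8% the TSS was inside it. The range of 1 to 100 bp holds all 4 values above, so its share is no test of a shared position. Window centres lay 160 bp upstream at Fdps, 166 bp at Mvk, 229 bp at Fdft1 and 236 bp at Insig1. Called regions began 891 bp upstream at Insig1, 898 bp at Mvk, 1459 bp at Fdft1 and 2056 bp at Fdps. They ended 594, 540, 1218 and 901 bp inside the gene in the same order. At Insig1 and Mvk the windows ran from 386 and 316 bp upstream, so they overlap the sequences printed above if RefSeq and the authors place the start alike, which was not checked.

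**Figure D3:**
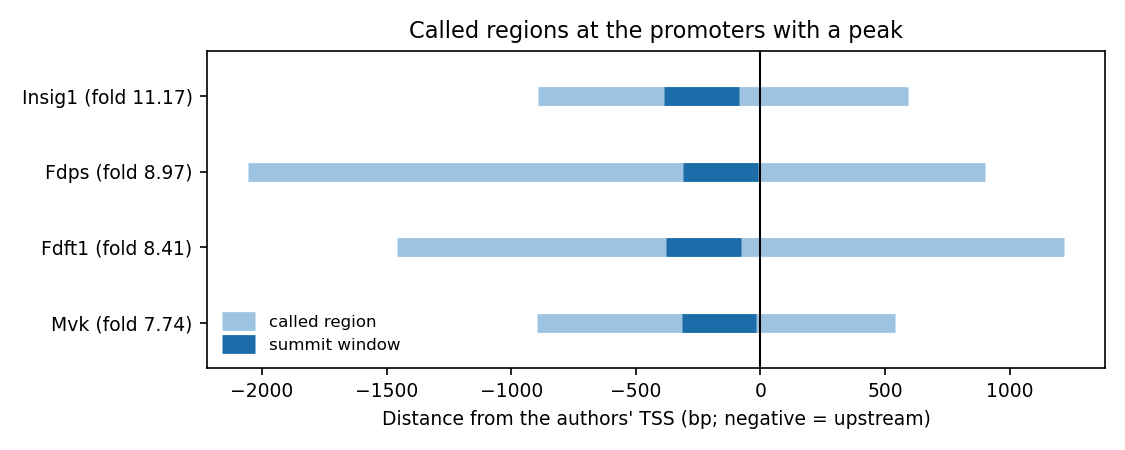
Extent of the called region (light) and of the 301 bp summit window (dark) in bp from the authors' TSS at the 4 genes with a promoter peak, in order of fold. All 4 windows lie upstream of the start, and the regions reach 540 to 1218 bp into the gene.

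Promoter peaks next to these in fold belonged to genes of other roles. Insig1 stood between 1500010J02Rik (11.17) and Carhsp1 (11.16). Fdps stood between the cell cycle inhibitor gene Cdkn2a (8.98) and the promoter shared by Syngr4 and Tmem143 (8.96). Fdft1 was next to Dnajc9, a histone chaperone gene (8.42), and Hes1, a repressor of the Notch pathway (8.41). Mvk lay between Pank2, a pantothenate kinase gene (7.74), and Wdr63 (7.73). Their tags ran from 132 at Wdr63 to 508 at Hes1, so peaks of nearly the same fold differed widely in tags.

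Over a wider list of 34 genes of cholesterol synthesis, its control and uptake, which includes the 6, promoter peaks were found at 11 (32.4%), beside 13.1% of all protein-coding genes. A further 3 had a peak elsewhere only and 20 had no listed peak. The median promoter fold of the 11 was 6.39, close to the 6.48 of all promoter peaks. Without the 6 genes the count was 7 of 28 with a median fold of 5.38. By fold, 4 of the 5 strongest promoters of the wider list were Insig1, Fdps, Fdft1 and Mvk, and the other was Mbtps2. The 6 genes and the wider list were chosen with results of these data known. Neither the share nor this order is therefore evidence of a preference.

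Among the 7 regulators of SREBP processing, 2 (28.6%) had a promoter peak, beside 13.1% of all protein-coding genes. Beside Insig1 this was Mbtps2, the site-2 protease that releases SREBP from the membrane, with a fold of 9.21 and 66 tags. Srebf1, which codes for SREBP-1, had no listed peak at its promoter. Its single peak inside the gene, also listed for Rai1, had a fold of 2.84 and a false discovery rate of 6.15%. This fold stood at the 2.8th percentile of all listed peaks, so it is among the weakest of the list. Scap, Insig2 and Mbtps1 had none listed. Insig1 thus had a fold of 11.17, while its closest relative, Insig2, had no listed peak.

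On the way from acetyl-CoA to squalene, 4 of 9 genes (44.4%) had a promoter peak, beside 13.1% of all protein-coding genes. Mvk, Fdps and Fdft1 among them belong to the 6 genes chosen with results known. Acat2, the thiolase of the entry step, had a fold of 3.63 at a promoter peak also listed for Acat3, the lowest of the 11. Pmvk, Mvd, Idi1 and Ggps1 had no listed peak. From squalene to cholesterol, 4 of 11 genes (36.4%) had a promoter peak, beside the same 13.1%. Folds were 6.39 at Dhcr7, which catalyses the last step of a branch, 6.35 at Tm7sf2, 5.38 at Msmo1 and 4.37 at Hsd17b7. The Dhcr7 peak is also listed for Nadsyn1 and the Tm7sf2 peak for 1110014N23Rik, so neither can be assigned to the cholesterol gene alone. All 4 promoter folds here were lower than those of Mvk, Fdft1 and Fdps.

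Of 7 genes for uptake and handling of cholesterol inside the cell, 1 (14.3%) had a promoter peak, near the 13.1% of all protein-coding genes. This was Lrp1, a receptor for remnant particles, with a fold of 4.82, 151 tags and its window 550 bp from the TSS. Lipa, the lysosomal lipase that frees cholesterol from LDL, had a peak 26372 bp inside the gene with a fold of 12.60 and 479 tags. It was the only peak of the wider list with a fold above that of Insig1. Mylip, Npc1, Npc2, Stard4 and Scarb1 had no listed peak.

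**Figure D4:**
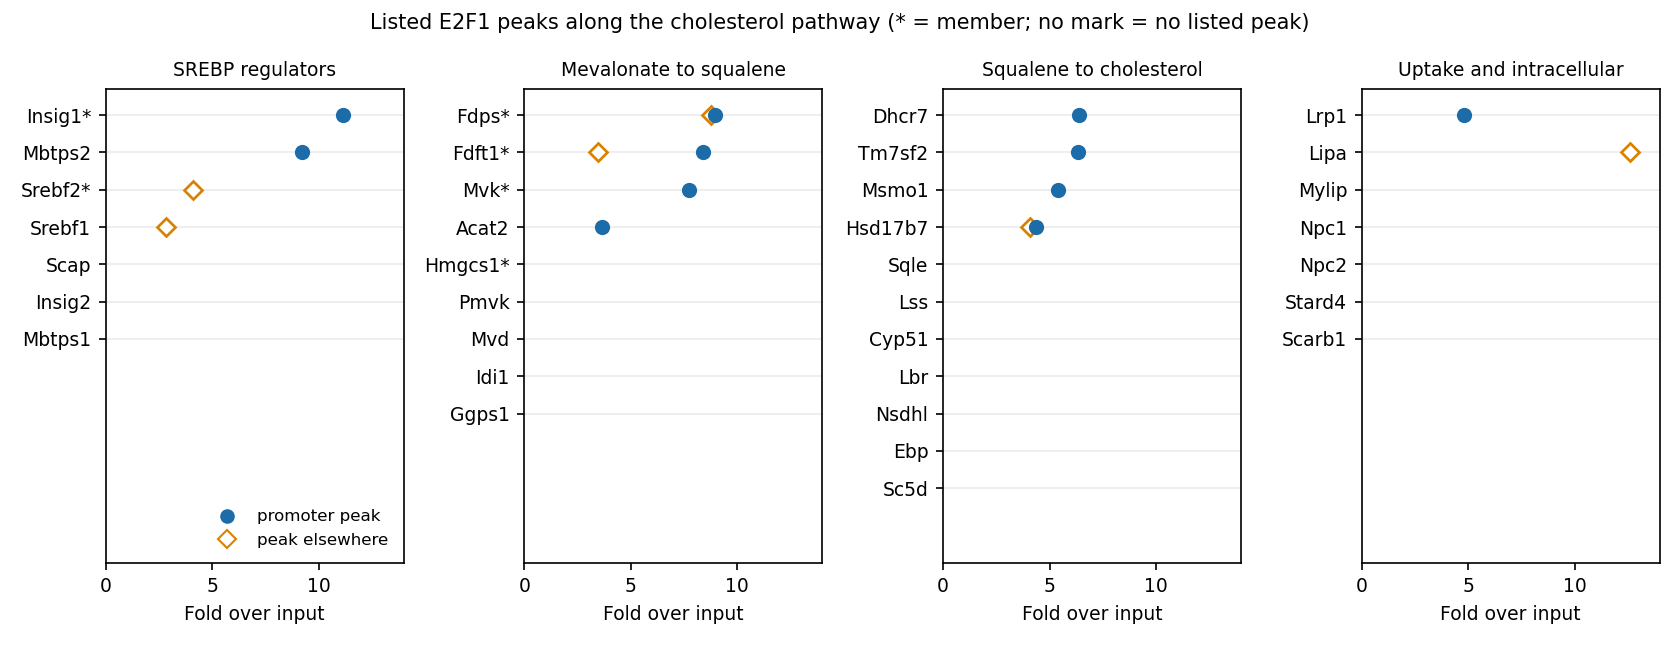
Fold over input of each listed peak at 34 genes of the cholesterol pathway, in 4 panels by step; filled circles are promoter peaks, open diamonds are peaks elsewhere, and genes without a mark have no listed peak. The highest promoter folds are those of Insig1 (11.17) and Mbtps2 (9.21), and the highest fold of all is the peak inside Lipa (12.60).

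The related pathway of de novo lipogenesis gives a scale for these values. Of 13 enzyme and carrier genes, 3 (23.1%) had a promoter peak, beside 13.1% of all protein-coding genes, with a median fold of 7.21. The fatty acid synthase gene Fasn had 9.34 with 109 tags, a fold between those of Insig1 and Fdps. The citrate carrier gene Slc25a1 had 7.21 and the desaturase gene Fads1 6.11. The counts of the cholesterol and lipogenesis lists were not tested against each other.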

How the data were processed

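ChIP-seq of E2F1 and input chromatin was analysed from the deposited peak list. Reads were aligned with Bowtie2 (2.1.0) to mm9, per the submitters' processing notes; peaks come from MACS, per the file headers, with settings not given in the sources used here. Deposited values per peak are the tag count, the pileup height (signal), the fold (ratio over input), a score (10 times the negative log10 of the p-value) and the false discovery rate in percent.

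Members were found by symbol, and symbols (5493 of 5587 matched) were tied to RefSeq names of GRCm38.p6. The 21900 protein-coding genes are those of this reference, and which of them the authors' annotation holds was not checked. A promoter peak has its window edge within 850 bp of a TSS. Distances on entries past the gene end were not used as distances to the TSS. Strand at Fdps and Fdft1 was taken from the side on which the peak past the gene lies. Percentiles count listed peaks at or below a value. Motifs were searched in the 250 bases before each RefSeq start; stretches with other letters than the 4 bases were left out. Python 3.11.15, pandas 2.3.3 and scipy 1.17.1 were used. The promoter call, the motif search and the percentiles were tested on simulated data, and the other steps were not. Named genes were the members, genes sharing their peaks, the next promoter peak above and below in fold, and the pathway lists, some of whose genes are not reported here. Members and lists were chosen with earlier results of these data known. Alternatives were other promoter widths, the authors' promoter class, stricter thresholds, the closest gene only, other ranks and other motif words.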

Additional observations from a re-analysis of the deposited data

How the results depend on the processing

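The count of 4 members with a promoter peak was unchanged when promoters were 500 or 5000 bp wide or taken from the authors' own class, and with only peaks of high score, of high fold or with a false discovery rate of at most 1%, while the share of all protein-coding genes ran from 5.49% (high fold) to 15.3% (5000 bp). With only the closest gene of each peak it was 3, because Mvk gave way to Mmab, and the share of all protein-coding genes was 11.7%. Under the 3 stricter thresholds 4 members kept any listed peak, as Srebf2 dropped out. The share of all protein-coding genes with any listed peak fell from 24.7% to 14.4% (high score), 7.53% (high fold) and 11.7% (low false discovery rate). For the 34 pathway genes the count of 11 became 5 with the 1419 peaks of fold 7.28 or more. The share of all protein-coding genes was 5.49% there, in place of 13.1%. The pathway count was 9 with 500 bp (share 11.5%) and with the 2835 peaks of highest score (9.35%). It was 11 with 5000 bp (15.3%) and with the authors' class (13.2%). The median percentile of the 4 promoter peaks, 82.8 by fold, was 71.2 among promoter peaks only, 85.9 by score and 68.2 by tags. Motif counts concern the 4 printed promoters (Insig1, Mvk, Hmgcs1 and Srebf2), of which Hmgcs1 and Srebf2 have no promoter peak. The E2F word was in 0 of these 4, in 2 with GCGGGA (Hmgcs1 and Srebf2) and in 0 with GCGGGAA. The sterol word was in 1 of these 4, in 2 with CACNCCAC and in 2 with CACCCCA. No paired analysis was possible because the list holds no separate replicates. Without read totals, how weak a bound site could be and still be listed cannot be stated.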

Other observations

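The 6 genes were also set beside the 3 protein-coding genes on each side in RefSeq gene order, a look chosen after the data had been seen. Of these 36 neighbours, 5 had a promoter peak, and 2 more had a listed peak elsewhere, beside 13.1% of all protein-coding genes with a promoter peak and 24.7% with any listed peak. The neighbours are thus near those shares or below them. The 5 were Cenpm, a centromere gene near Srebf2, Paxip1 and Rbm33 near Insig1, and Mmab and Gltp near Mvk, where the Mmab peak is the Mvk peak itself. Hmgcs1 had no listed peak at itself or at any of its 6 neighbours. At Fdps and Fdft1 no neighbour had a promoter peak, and the neighbours with a peak elsewhere, Rusc1 and Ctsb, are those that hold the peaks past the ends of these genes. Pklr, the liver pyruvate kinase gene, is among the neighbours of Fdps and had none.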
